A study of Mus musculus with 2 samples.

Results

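The genes described here encode the constitutive subunits of the proteasome. They were taken by symbol, after RefSeq names had been given to the probes' accessions: every symbol that begins with Psma, Psmb, Psmc, Psmd or Psme followed by a digit, with the interferon-inducible subunits Psmb8, Psmb9 and Psmb10 left out. On the array 42 genes met this rule, out of 20143 genes with a probe, and 40 of the 42 were measured on both arrays, out of 13843 such genes in all. Of these 40, 38 belong to the particle, its activators or its assembly factors, and the other 2, Psmc3ip and Psme3ip1, carry a like symbol but encode partner proteins outside the particle. The rule also takes 7 symbols without a probe here, which are 6 pseudogenes and the Psme2 copy Psme2b.

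Bone marrow cells of C57BL/6 mice had been kept in dishes over 4 days with 40 ng/ml of the myeloid growth factor GM-CSF and 5% serum. In the group GM-CSF + IL-6 the inflammatory cytokine IL-6 was present as well, also at 40 ng/ml, and in the group GM-CSF ONLY it was left out. The labels call the cells of both groups myeloid-derived suppressor cells, immature myeloid cells that restrain T cells, and give neither the age of the mice nor a sorting step. Each group is 1 sample of total RNA on 1 one-colour Agilent array, so the spread between cultures is unknown and differences are given without a test.

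The proteasome is the barrel-shaped protease that degrades proteins marked with ubiquitin in the cytosol and nucleus. Its core is a stack of rings, with the gate in the alpha rings and the proteolytic sites inside the beta rings. Regulatory caps, built from a base with a ring of ATPases and a lid with a deubiquitinase, bind ubiquitylated proteins, unfold them and feed them into the core. Other caps, the activators, open the gate without ATP. Under interferon the catalytic beta subunits are replaced by inducible forms, and the peptides made then feed MHC class I presentation. When proteasome activity is short, the transcription factor NRF1, the product of Nfe2l1, is known to raise the genes of nearly all subunits together.

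Values are log2 ratios, GM-CSF + IL-6 minus GM-CSF ONLY, and signals are intensities scaled to the 75th percentile of both arrays, 517. Each signal belongs to its own probe and serves to compare the arrays, not the genes. An error printed after a ratio is a technical SD, taken from probes printed several times on the array and made smaller where a probe itself has several usable spots. Errors of labelling and of culture are not in it. Of all probes, 57.9% exceeded background clearly on the array with IL-6 and 59.1% on the other. Saturation was not seen, and all 40 measured proteasome genes had a mean level over both arrays above the 75th percentile.

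The constitutive proteasome genes were close to equal in both cultures. Their median log2 ratio was -0.02, with a range from -0.22 to 0.25, beside medians of -0.02 over all genes measured and -0.03 over the 8049 genes brighter than the 75th percentile. With IL-6, 15 of the 40 were higher and 25 lower; a ratio above 0 was seen in 43.8% of all genes measured and in 40.0% of the brighter genes. No member reached 1.2-fold (a log2 ratio of 0.26) in either direction. Among all genes measured, 6.36% reached this size upward and 5.97% downward. The shares were 1.89% upward and 2.42% downward among the brighter genes. A 2-fold difference was reached by 0 members and by 0.383% of all genes measured. In all, 32 of the 40 (80.0%) lay within 1.1-fold, as did 73.9% of the brighter genes.

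**Figure D1:**
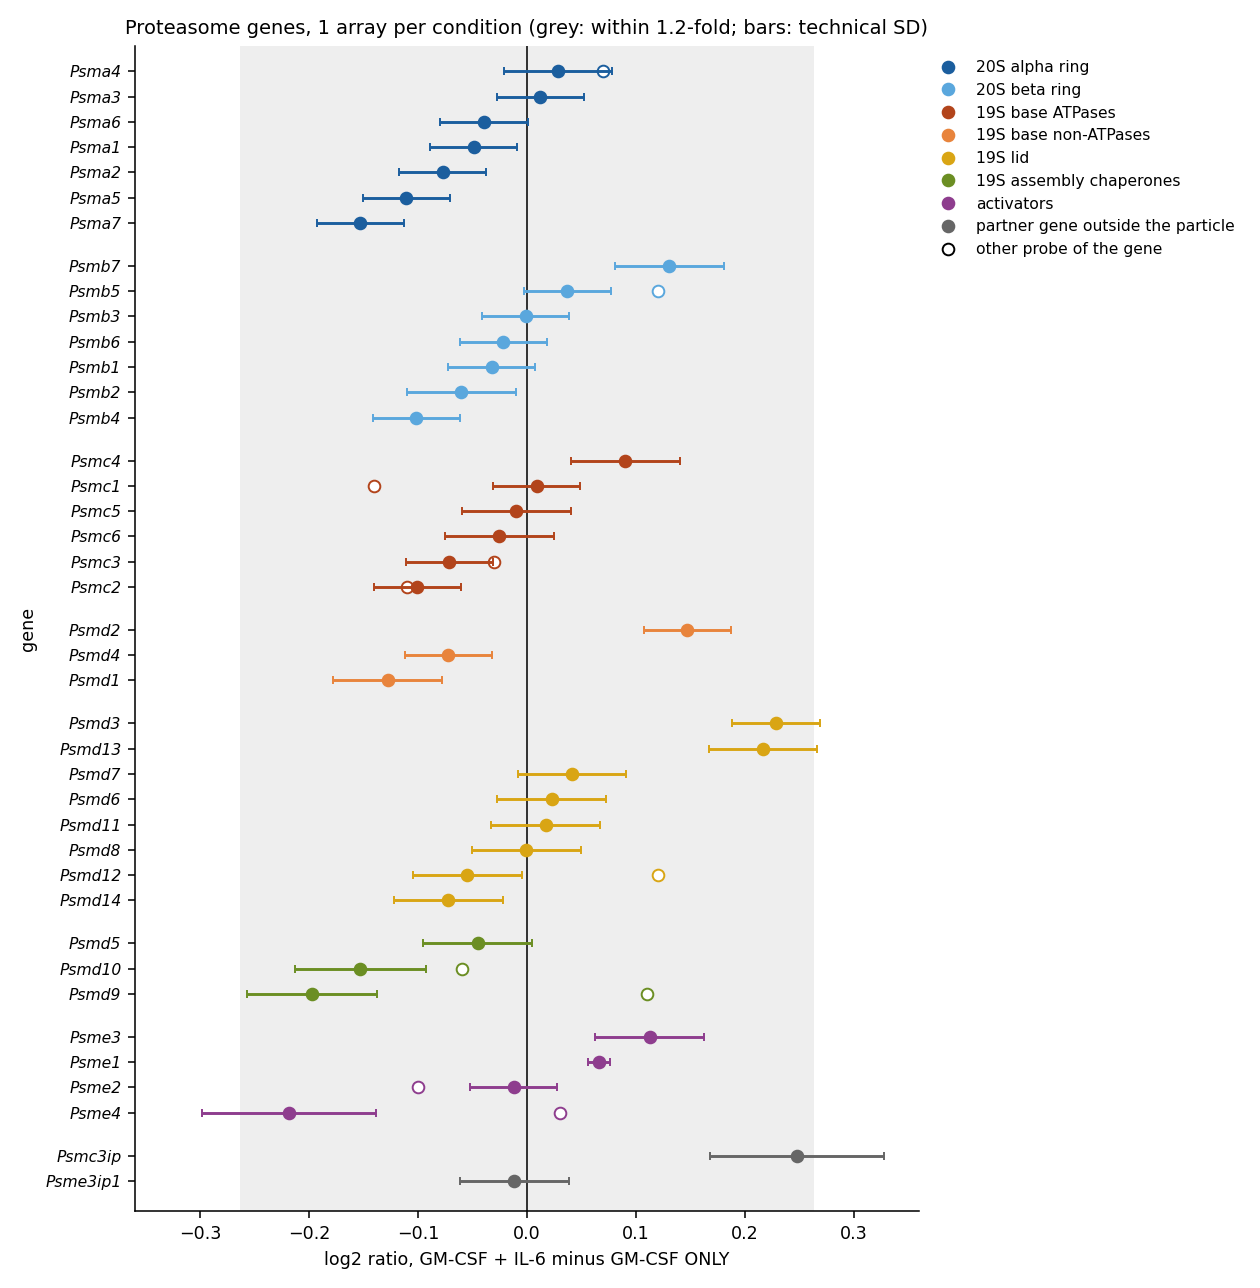
Log2 ratios of the 40 measured proteasome genes (x axis, GM-CSF + IL-6 minus GM-CSF ONLY) by gene (y axis) and role (colour), with 1 array per condition. Filled points are the brightest measured probe with its technical SD, open points the other probe of the same gene, and the grey band marks 1.2-fold; all filled points lie inside it, from -0.22 for Psme4 to 0.25 for Psmc3ip.

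The spread of the ratios, an SD of 0.11 over the 40 genes, was wider than the spot error of 0.05 (root mean square) and similar to the 0.13 of all brighter genes. Of the 40, 15 (37.5%) lay more than 2 technical SDs from 0, 7 of them higher and 8 lower, against 39.3% of the brighter genes. A second measure of error comes from genes with 2 probes. Over 1385 brighter genes the log2 ratios of both probes differed with an SD that corresponds to 0.09 per probe, and over the 10 proteasome genes with 2 measured probes it was 0.10. Only 5 of the 40 lay farther from 0 than 2 such probe SDs (0.18), namely Psmd3, Psmd13, Psmc3ip, Psmd9 and Psme4, beside 15.1% of the brighter genes. For Psmd9 and Psme4 a second probe did not show the difference, and the other 3 have 1 probe each.

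The alpha ring, which gates the entry to the core, had 7 measured genes, 2 of them higher and 5 lower with IL-6, and a median of -0.05. Beside the counts of this and the next groups, 43.8% of all genes measured and 40.0% of the brighter genes were above 0. The highest was Psma4, at 6723 with IL-6 and 6591 without (log2 ratio 0.03 ± 0.05), and its second probe gave 0.07. The lowest was Psma7, at 26274 with IL-6 and 29216 without (-0.15 ± 0.04), so the IL-6 array was the lower one by 10.1%. Psma1, Psma2, Psma3, Psma5 and Psma6 lay between -0.11 and 0.01. Psma8, the alpha subunit of the testis, was not well above background on either array.

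The beta ring held 7 measured genes, 2 higher and 5 lower, with a median of -0.02. Its catalytic subunits showed no shared direction. Psmb5, the chymotrypsin-like subunit, stood at 54651 with IL-6 and 53269.8 without (log2 ratio 0.04 ± 0.04), and its other probe gave 0.12. Psmb6, the caspase-like subunit, stood at 33102 and 33598 (-0.02 ± 0.04), and Psmb7, the trypsin-like subunit, at 8342 and 7619.9 (0.13 ± 0.05), the highest ratio of the ring. Among the structural beta subunits, Psmb3 was equal on both arrays (32582 and 32605, a log2 ratio of 0.00), and Psmb1 and Psmb2 had -0.03 and -0.06. The lowest was Psmb4, at 33985 and 36468 (-0.10 ± 0.04), whose spot lay in the outermost column of the array. Psmb11, the beta subunit of thymic cortical epithelium, was not well above background on either array. Over both rings, 4 of 14 core genes were higher and the median was -0.04.

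The ATPases of the base, which unfold the substrate, ran from -0.10 to 0.09, with 2 of 6 higher and a median of -0.02. Psmc4 was highest, at 7788 with IL-6 and 7314 without (log2 ratio 0.09 ± 0.05). Psmc2 was lowest, at 15529 and 16653 (-0.10 ± 0.04), and its second probe gave nearly the same, -0.11. Psmc1 had 0.01 on its brighter probe and -0.14 on the other, so its probes disagreed by more than the spot error. Psmc3 had -0.07 and -0.03 on its probes, and Psmc5 and Psmc6 had -0.01 and -0.03.

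The other base subunits went both ways. Psmd2, a scaffold that docks ubiquitin shuttles, was at 14786 with IL-6 and 13349.6 without (log2 ratio 0.15 ± 0.04), the IL-6 array being higher by 10.8%. Psmd1, the companion scaffold that anchors the lid, was at 10308 and 11262 (-0.13 ± 0.05), lower on the IL-6 array, and had -0.07 under normexp background correction. Psmd4, a ubiquitin receptor, had -0.07. Each of these genes was measured by 1 probe.

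The lid was the role group with most genes above 0, at 5 of 8, beside 43.8% of all genes measured, and its median was 0.02. The highest subunit ratios were both here. Psmd3, a scaffold subunit, was at 21014 with IL-6 and 17932 without, 1.17-fold apart (log2 ratio 0.23 ± 0.04). Psmd13, another scaffold subunit, was at 7793 and 6705, 1.16-fold apart (0.22 ± 0.05). In both cases the IL-6 array was the higher one, and each gene had 1 probe printed in 1 spot. The rest of the lid stayed between -0.07 and 0.04, with Psmd6 and Psmd11 each at 0.02 ± 0.05. Psmd14, the deubiquitinase that removes the ubiquitin chain, was lowest, at 2059 and 2165 (-0.07 ± 0.05), and Psmd7, its inactive partner, had 0.04, in an area of the array where unnamed probes differed in numbers. Psmd12 had -0.05 on its brighter probe and 0.12 on the other. Over base and lid together, 8 of 17 genes were higher and the median was 0.00.

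The assembly chaperones of the base, which are not part of the finished particle, were all below 0, with 0 of 3 higher and a median of -0.15. Most genes were below 0 as well, since 43.8% of all genes measured and 40.0% of the brighter genes were above 0. Psmd9 was at 1069 with IL-6 and 1226 without (log2 ratio -0.20 ± 0.06), but its second, dimmer probe gave 0.11, the widest gap between probes of 1 gene in the list (0.30). Psmd10, which encodes the oncoprotein gankyrin, was at 1093 and 1215 (-0.15 ± 0.06), with -0.06 on its other probe. Psmd5 was highest at -0.05 ± 0.05. With the median over each gene's probes in place of the brightest probe, the median of the 3 was -0.05.

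Among the activators, Psme1 and Psme2 form the PA28 cap that interferon induces, Psme3 forms the nuclear PA28 gamma cap and Psme4 encodes PA200, a nuclear activator. Psme1 was the only gene of the symbol rule whose probe was printed 10 times, and 9 of the spots were usable. Its signal ran from 27296 to 29877 with IL-6 (median 29125) and from 26224 to 29281 without (median 27454). The ratio was above 0 in 9 of 9 spots, from 0.02 to 0.10, although the ranges of both arrays overlapped. Its log2 ratio was 0.07 ± 0.01, the smallest technical error in the list, and spots share the labelling and the array. Psme2 was at 55167 and 55638 (-0.01 ± 0.04), with -0.10 on its other probe.

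Psme3 was at 3067 with IL-6 and 2836 without (log2 ratio 0.11 ± 0.05), the highest of the 4 activators. Psme4 was the lowest of all 40 genes on its brighter probe, at 485 and 565 (-0.22 ± 0.08), yet its dimmer probe gave 0.03. The IL-6 array was thus lower for Psme4 by 14.1% on 1 probe and not on the other. The activators thus split evenly, 2 on each side of 0, around a median of 0.03.

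Of the partner genes, Psmc3ip, which acts in homologous recombination, was at 637 with IL-6 and 536 without (log2 ratio 0.25 ± 0.08), the highest ratio under the rule. Psme3ip1, whose product binds Psme3, was at 2568 and 2588 (-0.01 ± 0.05). With normexp background correction Psmc3ip passed 1.2-fold, at 0.33.

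Genes that build or control the proteasome but fall outside the symbol rule were equally flat. Of 16 listed, 15 were measured, 5 higher and 10 lower, with a median of -0.05, and 0 reached 1.2-fold. Adrm1, a ubiquitin receptor of the base, was highest at 7824 and 7132 (log2 ratio 0.13 ± 0.05). Psmg4, a chaperone of alpha ring assembly, was lowest at 1309.9 and 1437 (-0.13 ± 0.06). Pomp, which matures the beta ring, was at 14662 and 14925 (-0.03 ± 0.04), with 0.18 on its other probe.

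The exception among the regulators was Nfe2l1 itself. Its signal was 209 with IL-6 and 145 without, 1.44-fold apart (log2 ratio 0.53 ± 0.13). The ratio was 0.48 under normexp background correction and 0.53 under the other settings. The value rests on 1 spot of 1 probe, dimmer than all 40 measured genes of the symbol rule and in column 159 of 164. The settings for dim probes, outlier spots, several probes and left-out tiles could therefore not change it. Among 2493 genes within 2-fold of this signal, 31 (1.24%) had a ratio at least as high and 7.90% were at least 1.2-fold higher. The other genes listed with Nfe2l1, whose products act on the NRF1 protein, did not share the difference. Ddi2, the protease that cleaves NRF1, had 0.08 and, on its other probe, -0.07. Ngly1, which removes the sugars of NRF1, was at 76.7 and 87.1 (-0.18 ± 0.19), and Sel1l and Vcp had -0.02 and -0.04. All measured genes of the symbol rule had a median of -0.02. They were not selected as NRF1 targets, and a link between Nfe2l1 and the subunit genes was not tested.

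The ubiquitin genes had 1 of 4 higher and a median of -0.04. Rps27a, which encodes ubiquitin fused to a ribosomal protein, was highest, at 266506 with IL-6 and 263358 without (log2 ratio 0.02 ± 0.04), with -0.15 and -0.02 on its other probes. Genes that deliver ubiquitylated proteins had 6 of 10 higher and a median of 0.04. Ufd1, a cofactor of the unfoldase VCP, was lowest, at 6368 with IL-6 and 7423 without (-0.22 ± 0.05), with -0.04 on its other probe. No gene of these 2 lists reached 1.2-fold.

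**Figure D2:**
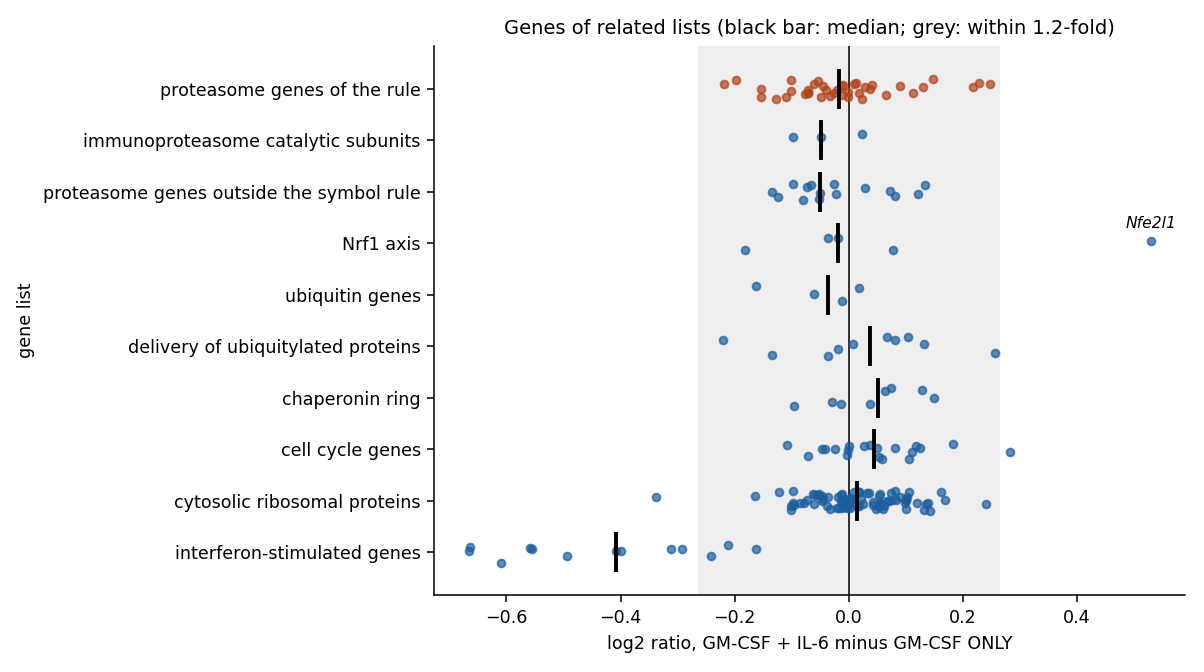
Log2 ratios (x axis, GM-CSF + IL-6 minus GM-CSF ONLY) of the genes of 10 lists (y axis), 1 point per measured gene, shifted up or down at random within a list for legibility. Black bars are medians and the grey band marks 1.2-fold: the proteasome genes centre on -0.02, Nfe2l1 stands alone at 0.53, and the interferon-stimulated genes centre on -0.41.

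The inducible catalytic subunits take the place of constitutive ones and were left out by the rule. Psmb8, which takes the place of Psmb5, was at 23465 with IL-6 and 23092 without (log2 ratio 0.02 ± 0.04). Psmb9, which replaces Psmb6, was at 22598 and 23382 (-0.05 ± 0.04), and Psmb10, which replaces Psmb7, at 28217 and 30197 (-0.10 ± 0.04). None of the 3 reached 1.2-fold. Under normexp background correction their median was -0.10, with Psmb9 at -0.10 and Psmb10 at -0.18. Of the listed interferon-stimulated genes, 13 of 13 were lower with IL-6 (median -0.41, 10 at least 1.2-fold lower), from Ifi44 at 562 and 892 (-0.67 ± 0.07) to Irf9 at 4983 and 5577 (-0.16 ± 0.05). At least 1.2-fold lower were 5.97% of all genes measured and 2.42% of the brighter genes, and 43.8% of all genes measured were higher.

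Among other large complexes, the 8 genes of the chaperonin ring, which folds actin and tubulin, had a median of 0.05 with 5 higher, from Cct4 at -0.10 to Cct6a at 0.15. The 81 genes of cytosolic ribosomal proteins had a median of 0.01 with 47 higher. Cell cycle genes had 12 of 20 higher and a median of 0.04, from Ccnb2 at -0.11 to the helicase gene Mcm2 at 0.28. With 1 array per condition these differences between lists could not be tested.

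**Figure D3:**
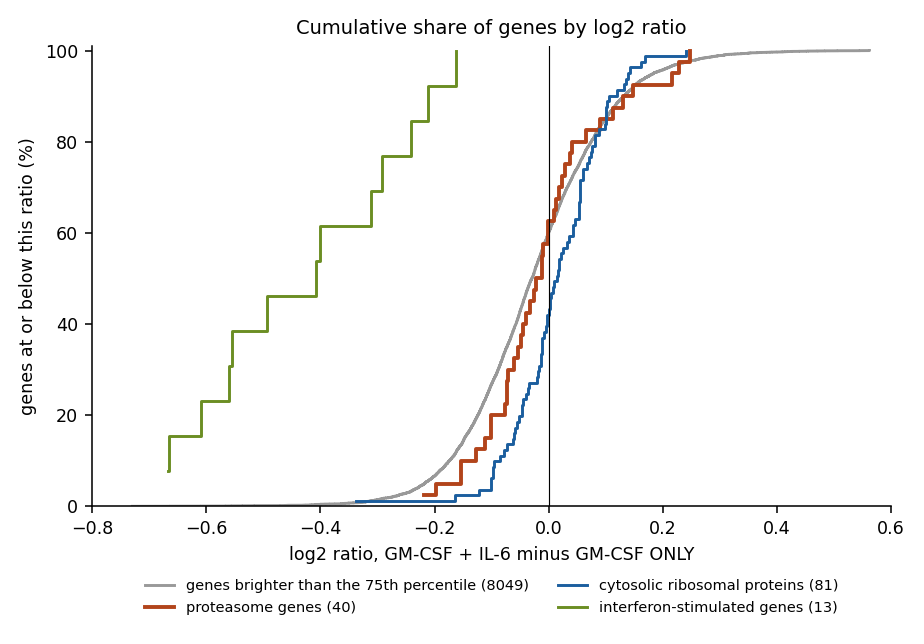
Cumulative share of genes (y axis, percent) at or below a log2 ratio (x axis, GM-CSF + IL-6 minus GM-CSF ONLY) for 4 groups of genes, with their numbers in the legend. The proteasome genes follow the genes brighter than the 75th percentile around a median of -0.02, the ribosomal protein genes lie slightly to the right and the interferon-stimulated genes well to the left.

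General myeloid markers were present on both arrays: 12 of 12 listed were measured, with summed signals of 1272825 with IL-6 and 1208538 without, a median log2 ratio of 0.06 and 7 higher. Whether the cells were suppressor cells was not tested. Over all genes measured, 43.8% were higher with IL-6. Mast cell and basophil markers were higher in 5 of 5 measured (summed signals 83265 and 74058), with Cma1 not well above background on both arrays. The highest of them, Tpsb2, had 0.42 on its brighter probe and -0.11 on its other. Megakaryocyte markers were lower in 5 of 6 (34072 and 37221). B cell markers were lower in 5 of 6 (summed signals 20409 and 20971, median -0.06). T and NK markers were lower in 4 of 5 (median -0.04), although their sum was higher with IL-6 (10415 and 9770.4), most of it from Nkg7 (7766 and 7049). Dendritic markers were lower in 3 of 5 (median -0.12), with Cd74 higher and a sum of 289749 and 275428. Eosinophil markers were split, 2 higher and 2 lower (108003 and 99545). Erythroid markers summed to 1661 and 1512 over 3 of 6 listed genes, with 2 higher and a median of 0.10. Klf1 and Alas2 were among those not well above background on both arrays. Hba-a1 was at 164 with IL-6 and 102 without, 1.61-fold apart (log2 ratio 0.69 ± 0.16). Hbb-bt, at 1344 and 1257, had 0.10 ± 0.06, and Epor, at 152 and 153, had -0.01 ± 0.14. The widest marker shift was in the stromal list, with 3 of 4 higher and a median of 0.38. Sparc was at 100.4 with IL-6 and 36 without (2.79-fold, log2 ratio 1.48 ± 0.22), and Col1a2 at 76.7 and 53.2 (1.44-fold, 0.53 ± 0.21), both at low signal. Col1a1, also at low signal, went the other way, at 68.5 with IL-6 and 75.1 without (-0.13 ± 0.20). The stromal sum of 5139 and 4312 was mostly Lepr (4894 and 4148), and Col3a1 and Cxcl12 were not well above background on both arrays. In a mixed culture a change in the share of a cell type and a change in RNA per cell cannot be told apart, and the part of these shifts in the proteasome values was not tested.

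The start sites of the subunit genes were examined for the letters of motifs linked to their shared control. RefSeq promoters of assembly GRCm38.p6, 250 bases before to 50 after a start, were at hand for 34 of the 40 measured genes, and 40 such windows belonged to genes of the rule. The last 100 bases before the start are shown for a catalytic subunit (Psmb5), for the lowest core subunit (Psma7), for the highest base subunit (Psmd2) and for the lowest chaperone and activator genes (Psmd9 and Psme4). Each is written 5′ to 3′ along the gene, ends at the base before the annotated start, and has in capitals the matches, on either strand and wholly inside the stretch shown, to CCGGAAG, a core of ETS factor sites, or to TGACNNNGC, a loose form of the site that NRF1 binds. The stretch of Psma7 holds neither.
Psmb5, chr14:54617996-54618095, minus strand: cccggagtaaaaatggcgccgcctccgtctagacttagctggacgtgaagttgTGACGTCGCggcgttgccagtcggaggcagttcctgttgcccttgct
Psma7, chr2:180042465-180042564, minus strand: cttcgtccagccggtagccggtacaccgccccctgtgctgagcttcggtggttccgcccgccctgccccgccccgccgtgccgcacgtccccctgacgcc
Psmd2, chr16:20651552-20651651, plus strand: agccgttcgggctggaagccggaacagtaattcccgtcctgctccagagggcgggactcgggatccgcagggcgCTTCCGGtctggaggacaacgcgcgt
Psmd9, chr5:123228090-123228189, plus strand: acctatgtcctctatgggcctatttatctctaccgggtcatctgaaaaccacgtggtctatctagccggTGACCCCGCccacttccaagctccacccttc
Psme4, chr11:30771675-30771774, plus strand: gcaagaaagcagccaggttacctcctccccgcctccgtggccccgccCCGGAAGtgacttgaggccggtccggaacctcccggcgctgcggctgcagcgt

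Over whole windows and both strands, CCGGAAG was found in 15 of 40 proteasome windows (37.5%), in 8.86% of all 32851 windows and in 15.7% of those of measured genes. The proteasome genes with this motif had a median log2 ratio of 0.00 (14 genes, from -0.22 for Psme4 to 0.25 for Psmc3ip) and those without it -0.03 (20 genes). TGACNNNGC was found in 6 of 40 (15%), in Psmb5, Psmb6, Psmc6, Psmd9, Psmd12 and Psme4. It was found in 12.4% of all windows and in 14.1% of those of measured genes. The proteasome genes with it had a median of -0.04, from -0.22 to 0.04. The strict form TGACTCAGC, which the loose form includes, was found in 0 of 40, in 0.454% of all windows and in 0.471% of those of measured genes. CCAAT, the letters that NF-Y binds, was found in 15 of 40 (37.5%), in 37.4% of all windows and in 37.7% of those of measured genes. The 14 measured proteasome genes with it had a median of -0.04. A match is a description of letters, and no difference between genes with and without a motif was tested.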

How the data were processed

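The samples were 2 cultures, 1 per treatment in the labels, each on 1 one-colour (Cy3) Agilent array. Per the file headers, the authors read the intensities from the scans in Feature Extraction 10.7.1.1, and the deposited processed intensity is not scaled between arrays (75th percentiles 486.2 with IL-6 and 549.7 without). The authors' deposited log2 matrix holds quantile-normalized values of the same arrays (r = 0.99998 and 0.99997 with each array's own log2 intensities, both medians 5.10). It served as an alternative. Which software made it is not stated in these sources.

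The value used was log2 of the processed intensity minus the array's 75th percentile over non-control spots. Outlier spots were left out, spots of a probe averaged, and a probe counted as measured when at least 50% of its spots were well above background on both arrays. A gene took its measured probe with the highest mean level. RefSeq accessions named 28109 probes, and 26577 of them led to a single symbol of the GRCm38.p6 table. Technical SDs came from 266 probes with at least 5 usable spots, from 0.24 for the dimmest to 0.04 for the brightest. No test was possible with 1 array per condition. Precision is limited by having 1 array each.

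The members and lists were chosen with earlier results of these data known. Values were given for the catalytic subunits, the activators, the highest and lowest gene of each list and members whose probes differed by over 0.26, and further genes were named after their values were seen. A few genes under this rule are not reported here. The calculations were tested on simulated data. A planned comparison of protein sequences was not analysed here. Tools were R 4.3.3 with limma 3.58.1, and Python 3.11.15 with matplotlib 3.10.9, pandas 2.3.3 and numpy 2.4.6.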

Additional observations from a re-analysis of the deposited data

How the results depend on the processing

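The 10 alternatives changed the scaling (median centring, quantile normalization, cyclic loess or the matrix of the authors), the background (normexp, offset 50), the filter (none, or one that drops the lowest 25% of genes), the outlier spots (kept) and the probe rule (median over the probes of a gene), or left out 10 of 336 tiles of the array, where at least 4 region-named or unnamed probes were 2-fold apart, with the outermost spots. The median of the proteasome genes stayed between -0.02 and -0.01, beside -0.03 to 0.02 for all genes, and 14 to 19 of them were above 0. The count at least 1.2-fold higher was 0 in the main setting, 1 with normexp (Psmc3ip) and 1 without a filter on dim probes (Psma8, not well above background), and 0 were lower in every setting run. The assembly chaperone median moved from -0.15 to -0.05 with the median over probes, where the probes of Psmd9 and Psmd10 differ. Under that probe rule Psmd9 stood at -0.05 and Psme4 at -0.09. Of 199 recomputed ratios of named members, 14 moved by more than the technical SD, 10 under normexp and 3 under that probe rule. Many of the 199 could not move. For a member with 1 probe in 1 spot, the filter, outlier, probe and tile settings give the same ratio. Under normexp Psma4 stood at -0.02, Psmb4 at -0.02, Psmb5 at 0.10, Psmc2 at -0.16, Psmd1 at -0.07, Psmd5 at -0.11, Psmd9 at -0.14, Psme3 at 0.18, Psme3ip1 at 0.06 and Psmc3ip at 0.33. Small values changed sign: Psma4 and Psme3ip1 with normexp, and Pomp with the probe median (0.08). Rps27a did so with quantile normalization, the matrix of the authors and the probe median (-0.02 each), and with normexp (-0.01). The crowded tiles held the Psmd7 probe, and the outermost column the Psmb4 probe. No paired analysis was possible because there was only 1 array on each side.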

Other observations

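Motifs linked to cytokine signalling were added after the other values had been seen. TTCNNNGAA, the letters of sites that STAT factors bind, was found in 1 of 40 proteasome windows (2.50%), that of Psmd2. It was found in 8.30% of all windows and in 7.25% of those of measured genes. Psmd2 had a log2 ratio of 0.15. AAANNGAAA, part of the site of interferon regulatory factors, was found in 5 of 40 (12.5%), in Psmb3, Psmd4, Psmd9, Psmd11 and Psme1. These 5 genes had a median of 0.00 and ranged from -0.20 to 0.07. The motif was found in 10.6% of all windows and in 8.55% of those of measured genes.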
